A study of Rattus norvegicus with 10 samples.

Results

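Endothelial genes were read in rupture-prone intracranial aneurysms of the rat and in the rest of the circle of Willis, the ring of arteries at the base of the brain. The set was a list of 36 genes named for the identity, barrier, signalling, transcriptional control and leukocyte adhesion of endothelial cells, and its members were taken from the table by gene symbol. Of the 22081 genes in the table, 34 were on the list. Pecam1 and Robo4 had no row under their symbol and were not analysed here. Of the 34 members, 18 had enough reads to be tested and 16 did not.

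Wild-type female Sprague–Dawley rats had surgery at 10 weeks of age and were sampled on day 63. The surgery comprised removal of both ovaries and ligation of the left carotid, right external carotid, right pterygopalatine and left renal arteries. A diet with 8% sodium chloride and 3-aminopropionitrile, which inhibits the collagen and elastin cross-linking enzyme lysyl oxidase, followed. A rupture-prone aneurysm (samples 4 to 8, n = 5) was defined by its site on the anterior or posterior communicating artery, and the other group (samples 4 to 8, n = 5) was the remaining circle of Willis. Both groups therefore carry the surgery, the diet and the drug, and neither is untreated artery. According to the methods, aneurysm and remaining circle were dissected from 1 and the same animal, so the fit of 5 against 5 compares tissues of shared animals without pairing them. No source used here says that a shared number marks 1 animal or that each number is a separate animal, so the p-values cover the spread among these samples alone, which may be technical.

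Endothelial cells line every vessel and are held together by VE-cadherin (Cdh5) at adherens junctions and by claudins and occludin at tight junctions. In brain vessels the tight junctions and a set of transporters form the blood-brain barrier. VEGF, angiopoietin and Notch receptors control vessel growth and quiescence, the ETS factors Erg and Fli1 and the SoxF and KLF factors keep the endothelial gene programme, and inflamed endothelium displays selectins, Icam1 and Vcam1, which capture leukocytes.

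The libraries held 3017269 to 7352626 gene reads, that is, reads on the exons or introns of a gene. Levels are given as CPM, gene reads per 1000000 gene reads of the library after TMM scaling between libraries. Aneurysm 8 stood apart from the rest: it had 743 genes with at least 10 exon reads, where the other 9 libraries had 2664 to 7590, and a TMM factor of 0.28 against 0.76 to 1.57. Its CPM values rest on few reads. As for the presence of endothelium, 4 to 13 of the 34 members had no read in each of the other 9 libraries, and 19 had none in aneurysm 8, Cdh5 among them. Of the 706 member reads of aneurysm 8, 4 were exonic. Levels of other cell types were summed over their markers, none of which passed the test in these lists. Summed over 6 neuronal markers, all 6 with reads, the level was 1.98 to 79.3 CPM in the aneurysms versus 126 to 780 CPM in the circle of Willis. Summed over 5 astrocyte markers, all with reads, it was 3.96 to 181 CPM against 404 to 766 CPM. For 8 macrophage markers, again all with reads, it was 114 to 1823 CPM against 20.5 to 167 CPM. The neuronal and astrocyte sums of the groups did not overlap and the macrophage sums did. In bulk tissue, fewer cells of a type and less RNA per cell cannot be told apart.

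None of the 18 tested members passed the threshold in either direction. edgeR's quasi-likelihood test with Benjamini-Hochberg adjustment over all 7615 genes called 12 genes, or 0.158%, at an adjusted p under 0.05, and 0 of the 18 members. DESeq2, which called 1.71% of all genes, and limma-voom also called 0 members. At an unadjusted p under 0.05, edgeR returned 1 of the 18 members, Ocln (5.56%), against 5.73% of all genes. DESeq2 and limma-voom returned 2 each, where they returned 11.3% and 10.9% of all genes. The log2 fold change was positive for 6 members and negative for 12, with a median of −0.17 where that of all 7615 genes was 0.13. Of all genes tested, 54.2% had a positive one. No member had all aneurysms above all circle of Willis samples, which 0.499% of all tested genes had, and none had all aneurysms below them, which 1.54% had. In 3 alternatives 1 member had all aneurysms below: Cldn5 with exon reads, where 1.35% of all genes tested had, Vwf without circle of Willis sample 4, where 2.16% had, and Ocln without circle of Willis sample 6, where 2.39% had. Intervals were wide: 17 of the 18 included no change, and the standard error of the log2 fold change was 0.79 to 1.80. The data therefore bound most members only loosely. For Flt1, the most narrowly measured on gene reads, the log2 fold change was −0.15 with a 95% interval of −1.76 to 1.46. With exon reads in place of gene reads it was −2.45 (SE 2.11), outside that interval.

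**Figure D1:**
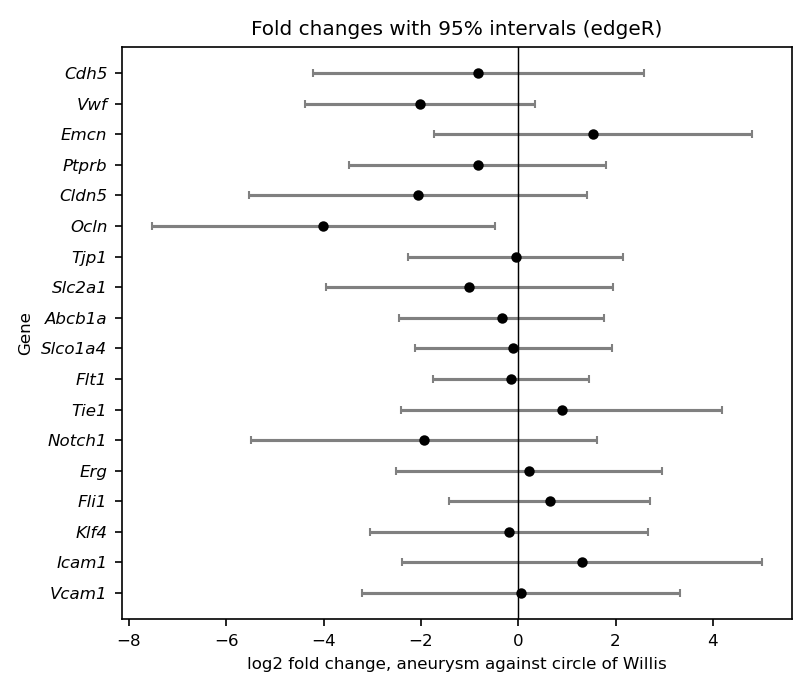
Log2 fold change (x axis, aneurysm against circle of Willis) of each of the 18 tested members (y axis, by role). Bars are 95% intervals derived from the F statistic of edgeR's quasi-likelihood test. The interval of Ocln, −7.52 to −0.48, is the one that does not reach 0, and its adjusted p was 0.746.

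Among the identity and junction genes, 4 of the 8 with a row could be tested and 3 of these had negative fold changes. Vwf, which encodes the platelet-binding von Willebrand factor stored in endothelial granules (chr4:158088504-158219523 in the build of the table, Rnor6), was read at 27.2, 22.5, 6.13, 2.83 and 4.75 CPM in aneurysms 4 to 8. In circle of Willis samples 4 to 8 it was read at 16.3, 54.4, 60.7, 28.8 and 98.4 CPM. Only aneurysms 4 and 5 reached into the range of the circle of Willis, and there only that of sample 4. The means were 12.7 ± 11.3 and 51.7 ± 31.8 CPM (SD, n = 5 each) and the log2 fold change was −2.02 (SE 1.15, interval −4.38 to 0.35, adjusted p = 0.941 by edgeR). The two-sided exact permutation test gave p = 0.0317, or 0.537 after Benjamini-Hochberg adjustment over all genes. The smallest p it allows is 0.00794. On exons there were 376 Vwf reads in the aneurysms, all in aneurysms 4 and 5, and 363 in the circle of Willis, before scaling to library size. After scaling, the mean exon level was 0.90 ± 1.29 CPM per kb of exon in the aneurysms versus 2.56 ± 2.73 in the circle of Willis (SD). Intronic reads made up 29.1% of the Vwf reads in the aneurysms versus 61.6% in the circle of Willis. With exon reads alone the log2 fold change of Vwf was −1.42 (SE 1.94). Markers of platelets, which also carry this protein, summed to 0 to 39.2 CPM in the aneurysms versus 0 to 7.12 CPM in the circle of Willis over 5 genes, with Ppbp at 0 in every sample; their part in the values of Vwf was not tested.

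Cdh5, the adherens junction cadherin of endothelium, was read at 27.2, 4.15, 0.90, 0.20 and 0 CPM in aneurysms 4 to 8, versus 15.5, 13.96, 7.80, 19.2 and 1.34 CPM in the circle of Willis. The highest and the lowest values both lay among the aneurysms, and 4 aneurysms were below 4 of the circle of Willis samples. The log2 fold change was −0.82 (SE 1.66, interval −4.22 to 2.58), and −3.04 without aneurysm 4. In aneurysm 4, however, only 4 of the 232 Cdh5 reads lay on exons, against 45 of 45 in aneurysm 5. Ptprb, the endothelial phosphatase that acts on VE-cadherin and Tie2, was read at 4.34, 47.2, 78.1, 4.84 and 0.79 CPM in the aneurysms versus 71.8, 88.4, 37.3, 0 and 43.6 CPM in the circle of Willis, so that both groups ran from below 1 CPM to 78.1 CPM or more. Its log2 fold change was −0.83 (SE 1.29), −1.75 without aneurysm 6, −0.49 without circle of Willis sample 5 and −0.00058 with limma-voom.

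Emcn, which encodes the surface sialomucin endomucin, had the largest positive fold change of the members, a log2 of 1.54 (SE 1.60, interval −1.73 to 4.81, edgeR adjusted p = 0.999), and 2.56 without circle of Willis sample 8. It was read at 0.47, 14.7, 0, 8.68 and 9.49 CPM in the aneurysms versus 0.17, 3.38, 0.29, 0.53 and 7.12 CPM in the circle of Willis. Aneurysm 5 alone had exon reads of Emcn, 47 in number, of which 45 crossed an exon junction. The other 4 genes of this role were too sparse to test. Esam, a junctional adhesion molecule, had 40, 299, 148, 1 and 0 reads in the aneurysms versus 41, 0, 5, 0 and 0 in the circle of Willis, and all of its 385 exon reads were in aneurysms. Egfl7, a secreted factor of endothelium, had 199 reads in aneurysm 5 and 71 in circle of Willis sample 6, with 13 or fewer in every other sample. Ecscr, a surface regulator of endothelial migration, had 70 reads in aneurysm 7 and 52 in circle of Willis sample 4, and 71.2% of its reads mapped uniquely. Plvap, the diaphragm protein of fenestrated and leaky vessels, had 71 reads over the aneurysms, 55 of them in aneurysm 5, and 3 over the circle of Willis.

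All 6 barrier genes that could be tested had negative log2 fold changes, from −4.00 to −0.05 with a median of −0.67, and none passed the test. Of all genes tested, 54.2% had positive ones. The sign turned in 8 of 21 alternatives for Tjp1 (0.21 with DESeq2), in 7 of 21 for Slco1a4 (0.65 with DESeq2) and in 1 for Abcb1a. Ocln, the tight junction protein occludin (chr2:30527714-30577218, Rnor6), was read at 4.46, 0.37, 0.18, 0.40 and 3.96 CPM in aneurysms 4 to 8, versus 25.7, 26.0, 3.18, 5.65 and 87.7 CPM in the circle of Willis. Circle of Willis sample 6 lay inside the range of the aneurysms, and the other 4 lay above it. The log2 fold change was −4.00 (SE 1.71, interval −7.52 to −0.48), with p = 0.0272 unadjusted and 0.746 adjusted by edgeR, and the two-sided exact permutation p was 0.0238, or 0.490 adjusted over all genes. Leaving out circle of Willis sample 8 gave a log2 fold change of −3.04. Of all Ocln reads 93.9% were intronic, and its 34 exon reads were all in circle of Willis sample 4. Occludin is also made by epithelia and neural cells: over 5 markers of choroid plexus and epithelium, all with reads, the summed level was 0.61 to 389 CPM in the aneurysms versus 21.4 to 194 CPM in the circle of Willis. The part of these cells and of the neuronal and astrocyte RNA given above in the values of Ocln was not tested.

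Cldn5, the main claudin of brain endothelium (chr11:86356293-86357718, Rnor6), was read at 2.46, 10.7, 8.11, 0 and 0 CPM in the aneurysms versus 7.996, 16.1, 13.9, 6.18 and 45.8 CPM in the circle of Willis. Aneurysms 5 and 6 lay above circle of Willis samples 4 and 7, and the other 3 aneurysms were below all 5. The fold change on the log2 scale was −2.05 (SE 1.69, interval −5.53 to 1.42, edgeR adjusted p = 0.999), with an exact permutation p of 0.0476, or 0.563 adjusted. Apart from Vwf, Ocln and Cldn5, the tested members had exact permutation p from 0.222 (Emcn) to 0.968 (Slco1a4 and Vcam1). The lowest adjusted permutation p of all genes tested was 0.390. The share of all genes under 0.05 by this test was not computed. Cldn5 has 1 exon, overlaps Cdc45 in position, and had 0% uniquely mapped reads, so none of its reads could be assigned to it alone. Whether other places in the genome or the overlap with Cdc45 account for this was not tested.

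Slc2a1, the glucose transporter Glut1 of the barrier, was read at 0.59, 63.5, 37.5, 0 and 0 CPM in the aneurysms versus 30.9, 40.8, 44.8, 2.47 and 85.9 CPM in the circle of Willis. Aneurysms 5 and 6 were within the range of the circle of Willis and the other 3 were below it (log2 fold change −1.004, SE 1.44, −2.05 without aneurysm 5 and −0.26 without both samples numbered 8). Abcb1a, the efflux pump P-glycoprotein, was read at 127, 55.1, 10.9998, 8.68 and 3.16 CPM in the aneurysms versus 72.3, 71.5, 33.8, 18.9 and 63.2 CPM in the circle of Willis. Aneurysms 6, 7 and 8 were the lowest 3 of all 10 samples while aneurysm 4 was the highest (log2 fold change −0.34, SE 1.03, and −1.39 without aneurysm 4).

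Tjp1, the scaffold protein ZO-1 of tight junctions in many cell types, was read at 154, 17.1, 0.36, 7.06 and 68.8 CPM in the aneurysms versus 14.4, 87.8, 73.6, 41.5 and 39.6 CPM in the circle of Willis. The spread among the aneurysms enclosed the whole of the other group, and the log2 fold change was −0.05 (SE 1.08), or −0.88 without aneurysm 4. Slco1a4, an organic anion transporter of brain vessels, was read at 51.0, 5.63, 31.4, 1.41 and 314 CPM in the aneurysms versus 35.98, 32.8, 109, 141 and 110 CPM in the circle of Willis. The highest value came from aneurysm 8 and from 397 reads, all intronic, of which 4 mapped uniquely, as did 4 of the 174 in aneurysm 6. Over all samples 57.8% of Slco1a4 reads mapped uniquely, so its counts are uncertain. Why the other reads did not was not tested. The log2 fold change was −0.10 (SE 0.98) with all reads, −2.59 (SE 1.26) with unique reads and −1.92 without aneurysm 8. Mfsd2a, the lipid transporter that limits transcytosis at the barrier, was not tested: 115 of its 119 reads were in circle of Willis sample 6.

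**Figure D2:**
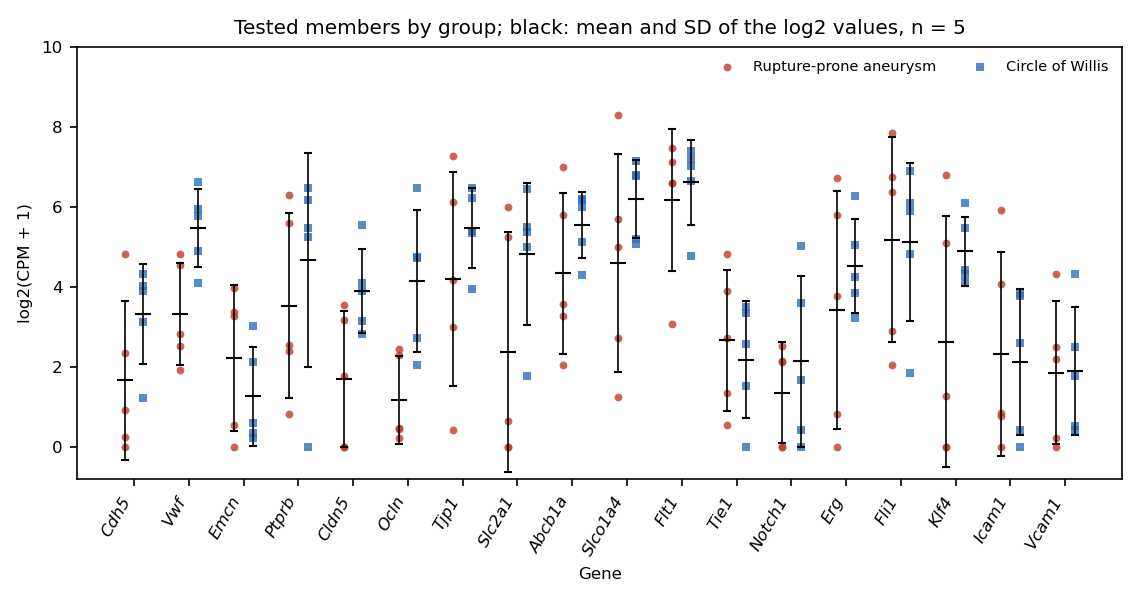
Level of each tested member (x axis) as log2(CPM + 1) (y axis), with 1 point per sample, circles for the 5 rupture-prone aneurysms and squares for the 5 circle of Willis samples; black lines are the mean and SD of the log2 values. The groups overlap for all 18 genes, least for Vwf, Cldn5 and Ocln.

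The receptors were led by Flt1, the VEGF receptor that also acts as a decoy. It was read at 7.51, 95.8, 177, 95.5 and 140 CPM in the aneurysms versus 26.6, 99.8, 148, 168 and 129 CPM in the circle of Willis. Sample 4 was the lowest in both groups and the other values of both groups lay from 95.5 to 177 CPM. Of its reads 83.9% were intronic. Tie1, the orphan partner of the angiopoietin receptor Tie2, was read at 0.47, 27.6, 5.59, 13.9 and 1.58 CPM in the aneurysms versus 1.91, 10.4, 9.24, 4.94 and 0 CPM in the circle of Willis, with aneurysms 5 and 7 above every circle of Willis sample (log2 fold change 0.89, SE 1.61, interval −2.41 to 4.20, and 0.078 without aneurysm 5). In contrast to Flt1, 9.71% of its reads were intronic. Notch1, a receptor of cell fate signalling, was read at 3.401, 4.80, 0, 3.43 and 0 CPM in the aneurysms versus 0.35, 31.9, 0, 11.1 and 2.23 CPM in the circle of Willis (log2 fold change −1.94, SE 1.73, and −0.54 without circle of Willis sample 5). Its 2 highest values were circle of Willis samples 5 and 7, and its other values were all under 5 CPM.

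The remaining 5 genes of this role were not tested. Kdr, the principal VEGF receptor, had 4, 231, 1, 0 and 0 reads in the aneurysms versus 80, 67, 1, 123 and 1 in the circle of Willis. Tek, the angiopoietin receptor Tie2, had 4, 70, 0, 0 and 4 against 121, 6, 109, 116 and 1. Both were thus well read in 1 aneurysm, number 5, and in 3 circle of Willis samples. Flt4, the VEGF-C receptor of lymphatic vessels, had 81 of its 98 reads in circle of Willis sample 7. Notch4, the Notch receptor of endothelium, had 77 and 280 reads in aneurysms 5 and 7 and 195 in circle of Willis sample 7, but only 31.4% of its reads mapped uniquely. Unique reads numbered 72 and 99 in aneurysms 5 and 7 and 2 in circle of Willis sample 7. Notch4 overlaps the gene C4a_2 in position, whose part in these counts was not tested. Dll4, the Notch ligand of arterial and tip cells, had 85 of its 95 reads in aneurysm 6, and all 95 were intronic.

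Of the 6 transcription factors, 3 were tested. Erg was read at 0, 55.4, 105, 12.7 and 0.79 CPM in the aneurysms versus 18.1, 76.6, 13.6, 8.47 and 32.5 CPM in the circle of Willis, and Fli1 at 6.45, 82.4, 231, 108 and 3.16 CPM against 27.3, 68.1, 2.60, 119 and 59.2 CPM. Both ETS genes had their highest value in aneurysm 6 and low values in aneurysms 4 and 8, and both had log2 fold changes smaller than their errors (0.22, SE 1.33, and 0.64, SE 1.01), which were −0.79 and −0.14 without aneurysm 6. Fli1 is also made by megakaryocytes and leukocytes. The exon reads of Erg were 1094 in the aneurysms, 595 and 435 of them in aneurysms 5 and 6, and 203 in the circle of Willis, so that most of the excess came from these libraries. Klf4, a factor that shear stress induces in endothelium and that smooth muscle and macrophages also make, was read at 111, 33.5, 1.44, 0 and 0 CPM in the aneurysms versus 19.1, 16.5, 67.9, 20.5 and 43.6 CPM in the circle of Willis. All circle of Willis samples carried it, whereas aneurysm 4 had the highest value of all and aneurysms 6 to 8 had 8 reads between them. All Klf4 reads were exonic, and the log2 fold change was −0.19 (SE 1.39, interval −3.05 to 2.67), or −1.94 without aneurysm 4.

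Klf2, the other shear-induced factor, had 0 reads in all 10 libraries, which allows up to 3 reads in 48808725, or 0.0615 per 1000000; this limit covers counting error only. Sox18 had 1 read, in aneurysm 6, and Sox17, the arterial SoxF factor, had 41 reads in aneurysm 5 and 44 in circle of Willis sample 5 and none elsewhere. All of these reads were exonic. These factors were not detectable at this depth in most libraries, which does not show that they were absent.

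The reads of the adhesion molecules lay mostly in aneurysms 4 and 5, the largest libraries. Their summed level was 80.1, 35.6, 1.26, 5.25 and 0 CPM in aneurysms 4 to 8. In circle of Willis samples 4 to 8 it was 3.30, 9.73, 33.2, 0.71 and 15.1 CPM. Icam1, the integrin ligand that arrests leukocytes (chr8:22035255-22047059, Rnor6), was read at 60.2, 15.96, 0.72, 0.81 and 0 CPM in aneurysms 4 to 8 versus 0, 5.08, 12.7, 0.35 and 13.4 CPM in the circle of Willis. Aneurysms 4 and 5 were above every circle of Willis sample and aneurysms 6 to 8 were below 3 of the 5. The log2 fold change was 1.31 (SE 1.80, interval −2.38 to 5.0005, edgeR adjusted p = 0.999), and without aneurysm 4 it was −0.52. The exon reads were 352 and 173 in aneurysms 4 and 5, 0 in the other aneurysms, and 0, 0, 0, 1 and 1 in the circle of Willis. Intronic reads made up 24.4% of the Icam1 reads in the aneurysms versus 98.0% in the circle of Willis. Vcam1, the ligand of the leukocyte integrin VLA-4 (chr2:219071192-219097619, Rnor6), was read at 19.2, 4.71, 0.18, 3.63 and 0 CPM in the aneurysms versus 2.43, 4.65, 19.1, 0.35 and 0.45 CPM in the circle of Willis. Each group thus had 1 sample near 19 CPM, and the log2 fold change was 0.06 (SE 1.60, interval −3.22 to 3.33), or −1.31 without aneurysm 4. The samples differed on exons, however: aneurysms 4 and 5 had 162 and 50 exon reads and circle of Willis sample 6 had 0. Macrophages and smooth muscle also make both proteins, and the macrophage sums given above overlapped between the groups with a higher median in the aneurysms (539 against 54.3 CPM); their part in these values was not tested.

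Aneurysms 4 and 5, with the most gene reads, held most exon reads of Icam1 and Vcam1, but also of Klf4, Tjp1 and Abcb1a. The upstream sequences of Icam1 and Vcam1 are shown because both are textbook targets of NF-κB. Each is the 250 bases before a RefSeq transcript start in build GRCr8, on the strand of the gene (Icam1 at chr8:27829595-27829844, plus strand, Vcam1 at chr2:206742784-206743033, minus strand), with capitals at matches to GGAAATTCC, GGGATTTCC or GGGTTTCCC, letters of the NF-κB type searched on both strands. The letters were chosen after these windows had been read, from elements known for these promoters, so that their presence here was fixed by the choice.
Icam1: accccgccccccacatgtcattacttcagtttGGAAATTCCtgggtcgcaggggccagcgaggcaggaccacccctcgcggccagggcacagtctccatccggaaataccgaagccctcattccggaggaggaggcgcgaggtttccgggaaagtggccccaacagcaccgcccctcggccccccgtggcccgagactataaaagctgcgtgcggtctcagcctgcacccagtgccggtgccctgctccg
Vcam1: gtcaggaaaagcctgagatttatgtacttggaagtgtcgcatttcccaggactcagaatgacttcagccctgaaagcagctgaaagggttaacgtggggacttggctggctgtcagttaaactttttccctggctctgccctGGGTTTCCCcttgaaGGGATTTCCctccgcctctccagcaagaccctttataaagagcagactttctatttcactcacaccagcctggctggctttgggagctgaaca
The match of Icam1 starts 218 bases before the transcript start, and the matches of Vcam1 start 108 and 93 bases before it, without overlap. At least 1 of the 3 letter strings was in 0.947% of all 33469 windows of this length, and Kdr was the other member, of 22 with a window, that held one. A match describes letters and is not a site of binding, and with the strings so chosen these counts are no comparison of the members with other genes.

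The other 3 adhesion genes were too sparse to test. Sele, the selectin that inflamed endothelium displays, had 0, 54, 2, 1 and 0 reads in the aneurysms, and the 54 of aneurysm 5 were all exonic; in the circle of Willis it had 5 reads, all in sample 6. Selp, the selectin of platelet and endothelial granules, had 12 reads in all, each intronic. Icam2, a constitutive integrin ligand of endothelium and platelets, had 107 of its 113 reads in aneurysm 5, none of them on exons.

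**Figure D3:**
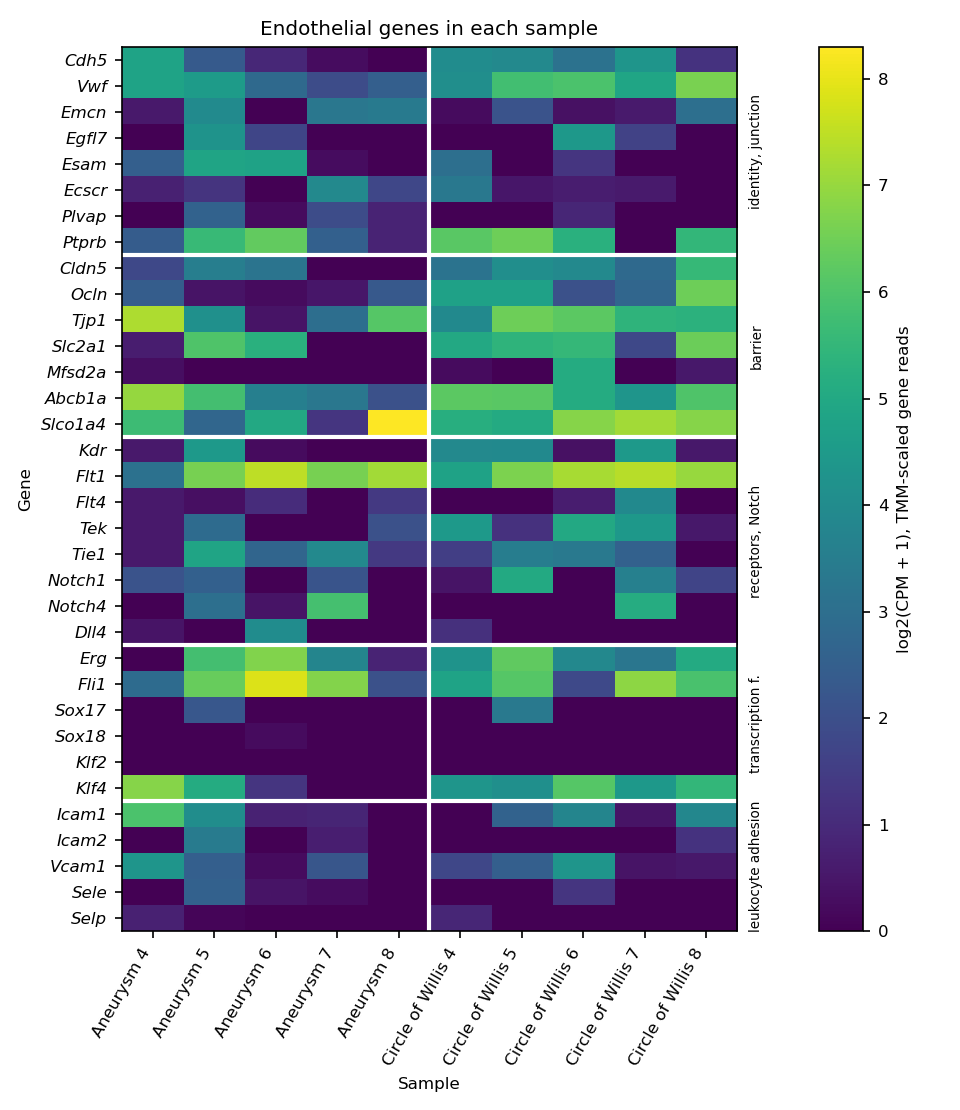
Level of each of the 34 members (rows, by role) in each sample (columns, aneurysms left of the white line and circle of Willis right of it) as log2(CPM + 1), where darkest is 0. Aneurysm 4 is brightest for Cdh5, Tjp1, Abcb1a, Klf4, Icam1 and Vcam1 and aneurysm 6 for Erg and Fli1, while aneurysm 8 has 10 or more reads for 4 members, Slco1a4, Flt1, Tjp1 and Emcn.

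The members had their highest values in different samples. Of the 33 members with any read, 6 were highest in aneurysm 4 (Abcb1a, Cdh5, Icam1, Klf4, Tjp1 and Vcam1), 6 in aneurysm 5 (Emcn, Esam, Icam2, Plvap, Sele and Tie1) and 5 in aneurysm 6 (Dll4, Erg, Fli1, Flt1 and Sox18). The 4 highest in circle of Willis sample 8 were Cldn5, Ocln, Slc2a1 and Vwf. For 15 of the 33 (45.5%), a single sample held at least 50% of all reads, as it did for 48.2% of all genes with reads, so the members were near the background. By role, aneurysm 4 had 340 CPM of barrier genes in sum but 13.1 CPM of receptors, whereas aneurysm 7 had 17.6 CPM of barrier genes and 169 CPM of receptors. The circle of Willis samples had 188 to 433 CPM of barrier genes and 65.0 to 275 CPM of receptors. Summed over all members the level was 346 to 741 CPM in the aneurysms versus 440 to 866 CPM in the circle of Willis, so the groups overlapped in the total as well.

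The number of members with at least 10 exon reads was 10, 25, 8, 8 and 0 in aneurysms 4 to 8 and 13, 16, 9, 7 and 8 in the circle of Willis. Aneurysm 5 thus held most members, 73.5%, but it also held 34.4% of all genes of the table at that level where the other 9 libraries held 3.36% to 19.1%. Aneurysm 8 held none, and 4 of its 706 member reads were exonic. Over the libraries, 18 members reached 10 exon reads in both groups, 7 in aneurysms alone (Ecscr, Emcn, Esam, Icam1, Notch4, Plvap and Sele), 3 in the circle of Willis alone (Mfsd2a, Ocln and Tek) and 6 in no sample. These are 52.9%, 20.6%, 8.82% and 17.6% of the members, and over all 22081 genes the shares were 29.6%, 11.1%, 8.51% and 50.8%. All of the 7 found in aneurysms alone reached it in aneurysm 5, 2 of them (Emcn and Sele) there alone and the other 5 in at least 1 more aneurysm.

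**Figure D4:**
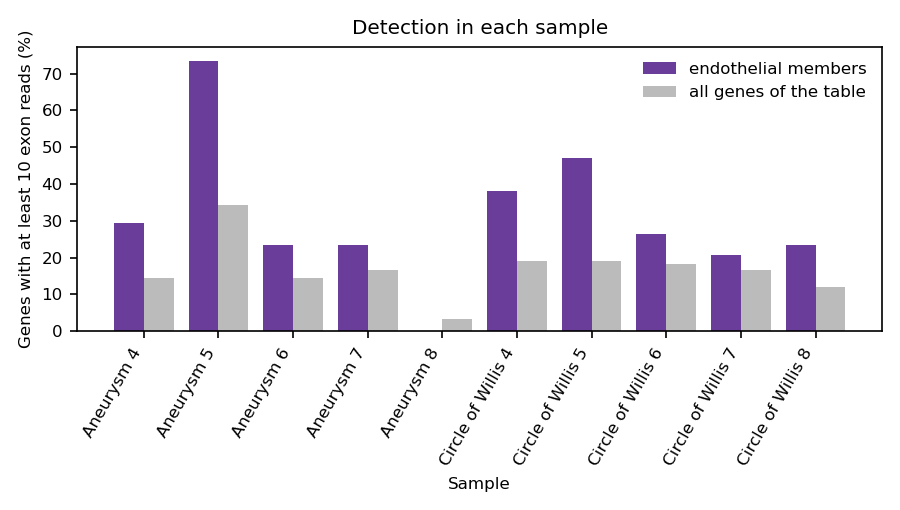
Share of the 34 members and of all 22081 genes (y axis, percent) with at least 10 exon reads in each sample (x axis). Members were found more often than genes at large in every library except aneurysm 8, which held 0% of the members and 3.36% of all genes, and aneurysm 5 leads on both measures.

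Exon and intron reads split the members further. Intronic reads made up 57.7% of all member reads, against 69.0% of the reads of all nuclear genes. Per gene, the median intron share was 50.6% over the 18 tested members and 69.9% over all tested genes. Per sample, the share was 32.5%, 37.1%, 63.6%, 75.6% and 99.4% in aneurysms 4 to 8 and 58.5%, 69.2%, 66.4%, 84.7% and 70.0% in the circle of Willis. The pooled shares were 47.3% and 71.1%, with the lowest shares in aneurysms 4 and 5, which hold most member reads of that group, and the samples of the groups overlapped. Reads across exon junctions were uneven. Among the 96 values of a member with more than 1 exon and at least 10 exon reads in a sample, 73 (76.0%) had no read across an exon junction and 11 (11.5%) had at least 90% of their exon reads across one. Over all nuclear genes with more than 1 exon, the shares were 73.1% and 8.78%. Ptprb had 145 exon reads in aneurysm 5 and 145 in circle of Willis sample 4, all of them junction reads, whereas none of the 373 in aneurysm 6 was. The handling of duplicate reads is not given in the sources used here.

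**Figure D5:**
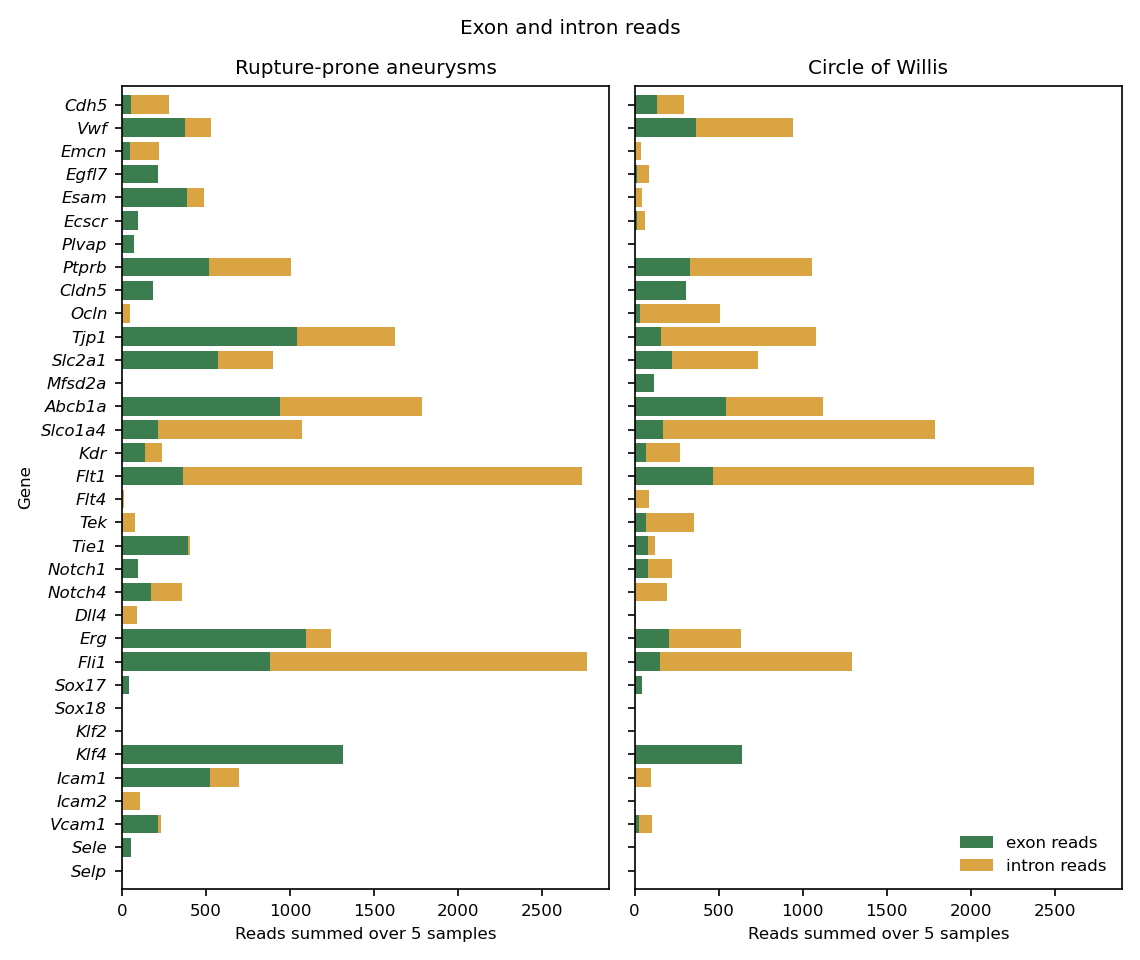
Exon reads and intron reads (x axis, summed over 5 samples) of each member (y axis) in the rupture-prone aneurysms (left) and in the circle of Willis (right). Icam1 and Vcam1 have exon reads in the aneurysms (525 and 213) and few in the circle of Willis (2 and 25), while Flt1 is mostly intronic in both groups.

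Genes that act with the members did not pass the test either. Of 13 angiogenic ligands, 6 were tested and 0 called. Slit2, a guidance ligand of Robo receptors, had a log2 fold change of 1.26 (SE 0.80), Vegfa, the ligand of Flt1 and Kdr, 1.76 (SE 1.78), and Angpt1, the agonist of Tek, −1.16 (SE 1.39). Of 11 leukocyte counter-receptors of the adhesion molecules, 6 were tested and 0 called, with a median log2 fold change of 1.38. Itgb1, a subunit of the Vcam1 receptor, had 1.66 (SE 0.92), Itgb2 and Itgal, which form the Icam1 receptor LFA-1, had 2.31 (SE 1.51) and 1.80 (SE 1.46), and Selplg, the selectin ligand, had 0 reads. Of 14 other junction proteins, 6 were tested, 0 called, and the median was −0.04.

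A wider list of 30 other endothelial genes had 11 tested members, 0 called and a median of 0.08. Its summed level was 409 to 787 CPM in the aneurysms versus 243 to 378 CPM in the circle of Willis, so this sum did not overlap although no gene of it passed the test. With library size only, an alternative chosen after seeing the data, aneurysm 8 was lowest at 115 CPM and the ranges of 115 to 1161 and 213 to 380 CPM overlapped. Its most abundant gene was the semaphorin and VEGF co-receptor Nrp2 (log2 fold change 1.49, SE 0.74, edgeR adjusted p = 0.887) and the related Nrp1 had one of 1.91 (SE 0.92, adjusted p = 0.865). Nrp1 was read at 40.6, 113, 149, 47.6 and 203 CPM in the aneurysms versus 3.48, 22.8, 33.8, 80.6 and 6.23 CPM in the circle of Willis. Circle of Willis sample 7 lay among the aneurysms and the other 4 lay below them. Macrophages also make both co-receptors, and the macrophage sums had the higher median in the aneurysms too; their part in the sum was not tested.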

How the data were processed

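The authors prepared poly(A) libraries with a stranded kit, mapped them in CLC genomics workbench, version 11, to the genome Rnor6, and deposited 1 table of unnormalized counts per gene (total and unique gene reads, exon, intron and exon junction reads). Annotation release, strand setting and duplicate handling are not given in the sources consulted. The authors' comparison columns (fold changes and p-values) and their normalized columns were not used. Total gene reads were analysed with edgeR (4.0.16) in R (4.3.3): filterByExpr (count minimum 10), TMM, quasi-likelihood test of 5 against 5 samples, Benjamini-Hochberg adjustment over 7615 genes, threshold 0.05. The fit was tested on simulated counts that varied less between samples than these data. That test therefore does not show how often a true change would be found here. Exact permutation tests, two-sided, used all 252 splits. Alternatives used DESeq2 (1.42.0) and limma (3.58.1) among 21 settings. All samples of a group differed beyond sampling noise (lowest chi-square over degrees of freedom 55.8).

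Members and lists were chosen with earlier results of these data known. Every member is accounted for; per partner list, up to 4 tested genes with the lowest p could be named. Values of 20 lists were computed; sums over markers not named in the text are in the closing section. Upstream sequences are RefSeq's (GRCr8), with 22 of the 36 members matched by symbol.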

Additional observations from a re-analysis of the deposited data

Results flagged for a closer look

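Single samples stood far from the other 4 of their group in 7 of 36 comparisons (18 members in each of 2 groups, Dixon's test with a critical value of 0.71 for 5 samples), or 19.4%. The same held for 18.7% of the 15230 comparisons over all tested genes, so the members were near the background; for normally distributed values chance gives about 1 in 20. In aneurysm 4, Cdh5 (27.2 CPM), Icam1 (60.2 CPM) and Vcam1 (19.2 CPM) were far above the other aneurysms. Slco1a4 stood at 314 CPM in aneurysm 8. In circle of Willis sample 8, Cldn5 (45.8 CPM) and Ocln (87.7 CPM) were far above the rest of the group, and Vcam1 (19.1 CPM) was so in circle of Willis sample 6.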

How the results depend on the processing

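The count of members called stayed at 0 under all 21 alternatives, and the lowest adjusted p among 369 refitted member values was 0.1002 (Ocln, DESeq2). The count of all genes called, 12, became 130 with DESeq2, 130 with no low-count filter, 2 with upper-quartile scaling, 2 with library size only, 24 without both samples numbered 8, and 1 to 33 when 1 sample was left out (33 without aneurysm 8, 2 without aneurysm 5 or 6 or circle of Willis sample 6 or 7, 4 without circle of Willis sample 5, and 1 without circle of Willis sample 8). Members whose groups do not overlap rose from 0 to 1 with exon reads (Cldn5), without circle of Willis sample 4 (Vwf) or without circle of Willis sample 6 (Ocln), lower in the aneurysms each time, where 1.35%, 2.16% and 2.39% of all genes tested under these settings were, so the leave-one-out range is 0 to 1. The median log2 fold change of all genes was 0.13, against 0.40 with DESeq2, −0.32 with limma-voom and −0.35 with the replicate block. The sign held in every refit that tested the gene for 9 members (Cdh5, Cldn5, Emcn, Notch1, Ocln, Ptprb, Slc2a1, Tie1 and Vwf), and 41 values of the other 9 changed sign. Of these 9 stable members, Cdh5, Cldn5, Ocln and Slc2a1 were tested in 20 of the 21 alternatives and Emcn in 19. Cdh5, Emcn, Ocln and Slc2a1 had no test on exon reads and Cldn5 had none on unique reads. With DESeq2 the log2 fold changes were 0.21 for Tjp1, 0.65 for Slco1a4, 0.31 for Flt1 and −0.028 for Vcam1, with upper-quartile scaling 0.051 for Tjp1, 0.38 for Slco1a4, −0.10 for Erg and −0.083 for Vcam1, with exon reads 1.87 for Tjp1, with library size only 0.15 for Klf4, with limma-voom −1.84 for Erg, and without both samples numbered 8 0.020 for Abcb1a and 0.21 for Klf4. Leaving out 1 sample gave −0.88 to 0.32 for Tjp1, −1.92 to 0.50 for Slco1a4, −0.40 to 0.27 for Flt1, −0.79 to 0.93 for Erg, −0.14 to 1.14 for Fli1, −1.94 to 0.25 for Klf4, −0.52 to 1.79 for Icam1, −3.04 to −0.49 for Cdh5, −2.34 to −0.54 for Notch1, −1.39 to −0.02 for Abcb1a, −2.05 to −0.56 for Slc2a1, −1.75 to −0.49 for Ptprb, −2.70 to −1.37 for Cldn5, −4.46 to −3.04 for Ocln, −2.46 to −1.65 for Vwf, 1.19 to 2.56 for Emcn, 0.078 to 1.28 for Tie1 and −1.31 to 1.499 for Vcam1. The cause of these changes was not tested. Same-numbered samples deviated together with correlations of −0.02 to 0.14, over 0.1 in 1 of 5 pairs. Of the 5 aneurysms, 2 correlated best with their own number. Such correlations between different tissues cannot show whether a shared number marks 1 animal. The numbers were not taken to pair the samples because no source used here says that they do. With the sample number as a replicate block, 17 genes and 0 members were called, and the log2 fold change was −1.37 for Erg, −0.46 for Fli1, 0.022 for Icam1, −4.20 for Klf4, −1.499 for Tjp1, −1.503 for Slco1a4, −1.20 for Abcb1a, −3.89 for Slc2a1 and −2.76 for Cdh5. With limma-voom it was −2.99 for Slc2a1, −2.68 for Klf4, −2.36 for Cdh5, −2.16 for Slco1a4, −1.44 for Tjp1, −0.89 for Notch1 and −0.00058 for Ptprb. The 16 members with few reads have no test of a difference between the groups.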

Other observations

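Other cell types around the endothelium gave the following summed levels over their markers. Smooth muscle was at 341 to 1052 CPM in the aneurysms and 500 to 1258 CPM in the circle of Willis, led by Myh11. Pericytes were at 3.75 to 298 CPM against 25.1 to 104 CPM, led by Pdgfrb, with Higd1b at 0 reads. Fibroblasts, led by Dcn, were at 95.5 to 384 CPM against 32.3 to 178 CPM, and lymphatic endothelium, led by Prox1, at 0.54 to 224 CPM against 6.23 to 103 CPM. Oligodendrocytes, led by Mbp, were at 40.8 to 501 CPM against 34.9 to 152 CPM. Neutrophils were at 0 to 8.56 CPM against 0.58 to 21.7 CPM, with S100a9 and Mpo at 0 reads. The groups overlapped in each of these 6 sums.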
